A study of Drosophila melanogaster and Nicrophorus vespilloides with 16 samples.

Results

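Glue, storage and secreted protein genes of the Drosophila melanogaster larva were taken as the protein-coding genes of a RefSeq gene table whose symbols belong to 6 families. They numbered 34 of 13922 protein-coding genes on 6 chromosome arms. The salivary gland group held 22 genes, made up of 7 Sgs genes, 4 ng genes and 11 Eig71E genes. The fat body group held 12 genes, made up of 4 Lsp genes, 2 Fbp genes and 6 Idgf genes. The rule reads symbols and no measured value, but the families were chosen with earlier results of these data known.

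H3K4me3, the form of histone H3 with 3 methyl groups on lysine 4, typically sits at promoters of transcribed genes. It was mapped by chromatin immunoprecipitation with sequencing (ChIP-seq) on a solid-state filter. The chromatin came from whole third-instar larvae of the Oregon-R strain, reared on yeast-based food, in 4 replicates that each pooled 30 animals. The labels give neither the hours within the instar nor the sex. The study also held 4 fly input libraries and a set of adult beetle brains, which were not analysed here.

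Each fly list gives peak summits, the 1 bp positions of highest enrichment, with the authors' own score per summit. The 4 replicates held 3518, 4969, 5236 and 5313 summits, and the numbers of reads behind them are unknown. Genes counted as marked if at least 3 of the 4 replicates had a summit no more than 1 kb from either annotated end. The gene table carries no strand, so gene starts and 3′ ends were not told apart.

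The Sgs genes encode the salivary gland secretion, a mucin-rich glue that fixes the pupal case to its support. They are switched on in the salivary gland during the third instar in response to ecdysone. The ng genes are further salivary gland transcripts, and most Eig71E genes of polytene band 71E are late genes that respond to the ecdysone pulse at the end of larval life. The fat body, the insect counterpart of liver and adipose tissue, makes the larval serum proteins (Lsp), hexamerins stored for metamorphosis, and the receptor Fbp1 that takes them back up. The Idgf genes encode chitinase-like secreted growth factors made by the fat body and by other tissues.

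Of the 34 genes 1 was marked, and it was the storage protein gene Lsp2. That is 2.94%, where 43.9% of all protein-coding genes were marked. The other 33 genes had no summit within 1 kb in any replicate, while 49.9% of all protein-coding genes had none. None of the 34 held a summit inside the gene within 1 kb of an end, a position found in at least 3 replicates for 31.1% of all protein-coding genes. A gene without a summit was not called at this unknown depth, which does not show that the mark was absent. In chromatin from whole larvae, a mark carried by few cells and a weak mark in many cells cannot be told apart.

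By group, 0 of the 22 salivary gland genes and 1 of the 12 fat body genes were marked. The share of salivary gland genes with a summit was 0% in each of the 4 replicates. The share of fat body genes was 8.33% in each, which stands for Lsp2 alone. For all protein-coding genes the share was 35.8%, 43.8%, 46.6% and 48.6% in replicates 1 to 4, a mean of 43.7% ± 5.63 (SD, n = 4). The difference between the groups rests on 1 gene, and many of the genes share a cluster, so no test was made of it.

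**Figure D1:**
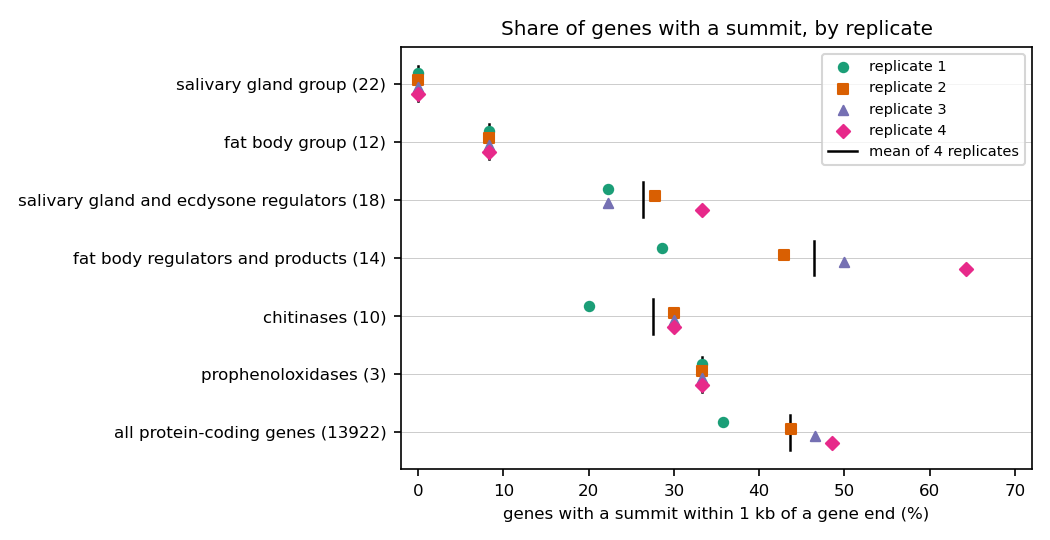
Each point is the percentage of genes of a group with a summit within 1 kb of a gene end in 1 replicate, with the number of genes in brackets and the mean of the 4 replicates as a bar. The salivary gland group lies at 0% and the fat body group at 8.33% in every replicate, and all protein-coding genes lie between 35.8% and 48.6%.

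The share of marked genes differed with gene length, nesting and spacing. The glue, storage and secreted protein genes had a median length of 763.5 bp, against 2163 bp for all protein-coding genes. Within the range of lengths of the members, 43.7% of all genes were marked, close to the share over every length. Of 19 members up to 1 kb long 0 were marked, against 24.8% of all genes of that size. Of 15 longer members 1 was marked, against 48.4% of all longer genes. Of 7 members nested wholly inside another gene 0 were marked, against 21.9% of all nested genes. Of 7 members with no end of another gene within 1 kb 0 were marked, and for all such genes the share was only 7.42%. The part of these features in the low count was not tested.

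The summit that called Lsp2 lay in the neighbouring gene. Lsp2 encodes a hexamerin of the larval serum and lies on chromosome 3L. In replicates 1 to 4 its summits stood at 12132372, 12132314, 12132364 and 12132362, no more than 58 bp apart. They lay 503, 445, 495 and 493 bp outside the end of Lsp2, and 226, 168, 218 and 216 bp inside DEF8, whose nearer end is 0.277 kb from Lsp2. The replicates thus placed the summit in the same gene, and at nearly the same base.

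The strength of that summit varied more than its place. Its scores were 2.20, 12.7, 15.3 and 31.6 in replicates 1 to 4, but scores are not scaled between libraries. Ranked among all summits of its own replicate, it stood at percentiles 1.51, 78.5, 50.4 and 67.3, a mean of 49.4 ± 33.9 (SD, n = 4). In replicate 1 it was among the weakest summits called, and in the other replicates it was in the middle or upper part of the list. DEF8 itself had a summit inside the gene in 4 replicates. Of 14 protein-coding genes within 20 kb of Lsp2 12 were marked, including yps, a cold-shock domain protein that binds RNA, on the other side.

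The remaining larval serum protein genes were far from any summit. Lsp1alpha, Lsp1beta and Lsp1gamma encode the subunits of the other main hexamerin of the larval serum and lie on X, 2L and 3L. The nearest summit of Lsp1alpha was 26.6, 27.3, 18.4 and 18.3 kb away in replicates 1 to 4. That of Lsp1beta was 28.8, 26.5, 26.7 and 27.9 kb away. That of Lsp1gamma was 115 kb away in replicate 1 and 60.7, 60.7 and 60.6 kb away in replicates 2 to 4. Of the Lsp genes, then, Lsp2 was the only one with a summit closer than 18 kb, and the 3 Lsp1 genes had no marked gene or 1 marked gene within 20 kb.

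Of the Fbp genes, Fbp2 lay close to summits and Fbp1 did not. Fbp1, the receptor through which fat body cells take up larval serum proteins, had its nearest summit 41.2, 41.2, 22.5 and 22.5 kb away in replicates 1 to 4. Fbp2, a fat body protein related to alcohol dehydrogenase, had it 2.99, 2.96, 3.72 and 2.92 kb away. In replicates 1, 2 and 4 this summit lay inside FucTB, a fucosyltransferase gene, at 2L positions 9430906, 9430880 and 9430840. In replicate 3 no summit was called there and the nearest was inside scat at 9431634. Fbp2 itself and its other neighbour, Mco1, a multicopper oxidase gene, had no summit.

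The 6 Idgf genes were without a summit within 16 kb in any replicate. Idgf1, Idgf2 and Idgf3 form a cluster of 9.92 kb on 2L, and the nearest summit to the cluster was 88.8, 36.5, 22.1 and 36.6 kb away in replicates 1 to 4. Idgf5 on 2R had the closest summit of the family, 16.1, 16.1, 16.1 and 16.0 kb away. It lay inside imd, which encodes the adaptor of the Imd immune pathway. Idgf6 on 2R lies within the span of Pgant9, which encodes an enzyme that adds sugars to the glue mucin Sgs3. The nearest summit to Idgf6 was 78.8, 79.7, 78.1 and 78.7 kb away. Idgf4 on X had a nearest summit at 149, 138, 149 and 43.3 kb, and its median of 143 kb was the longest among the 34 genes.

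Among the salivary gland genes Sgs1 came closest to a summit. Sgs1, a large glue mucin on 2L, had its nearest summit 3.69, 3.78, 4.31 and 3.66 kb away in replicates 1 to 4. In replicates 1, 2 and 4 it lay inside mRpL24, a mitochondrial ribosomal protein gene, at positions 4945113, 4945203 and 4945079. In replicate 3 it lay inside the next gene, betaggt-I, at 4945733. Within 20 kb of Sgs1 8 of 11 protein-coding genes were marked. On the other side, hoe2 had no summit, and the closest summit in any replicate was 44.5 kb away.

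The glue gene cluster of polytene band 68C, with Sgs3, Sgs7 and Sgs8 in 4.44 kb of 3L, had no summit nearby. The nearest was 48.7, 49.5 and 48.7 kb away in replicates 1 to 3. It lay where Mob2, a gene of the Mob family of kinase cofactors, and CG7394 overlap in replicates 1 and 3, and in CG7394 alone in replicate 2. In replicate 4 it was 20.9 kb away on the other side, inside chrb, an inhibitor of TOR signalling. The direct neighbours on both sides, CG33500 and CG7512, had no summit within 1 kb in any replicate. Of 7 genes within 20 kb of the cluster 1 was marked.

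Sgs5 and Sgs5bis, paired on 3R, had a summit 10.2, 10.2, 10.2 and 10.1 kb from the nearer gene in replicates 1 to 4. It lay inside sll, a transporter of the sulfate donor used in the Golgi. Among the 5 loci of the salivary gland group this distance varied least between replicates. The direct neighbours Hmx and CG7606 had no summit.

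The ng genes and Sgs4 lie together in 11.015 kb of X, inside the span of dnc, which encodes a cyclic AMP phosphodiesterase. The nearest summit to this cluster was 232 kb away in replicate 1 and 67.1, 67.2 and 64.5 kb away in replicates 2 to 4. The replicate 4 summit, at position 3175507, lay inside CG3939. None of the 3 other protein-coding genes within 20 kb was marked, dnc among them. On the other side the first summit in any replicate was 122 kb away, inside Myc, the growth-promoting transcription factor.

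All 11 Eig71E genes lie within 12.7 kb of 3L. The nearest summit to this cluster was 38.9, 38.9, 29.01 and 28.99 kb away in replicates 1 to 4. In replicates 3 and 4 the summit lay where comm3 and Phs overlap. On the other side no summit was called in any replicate for 154 kb, up to fwe. The direct neighbours CG43083 and CG43082 had no summit, and none of the 6 other genes within 20 kb was marked.

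**Figure D2:**
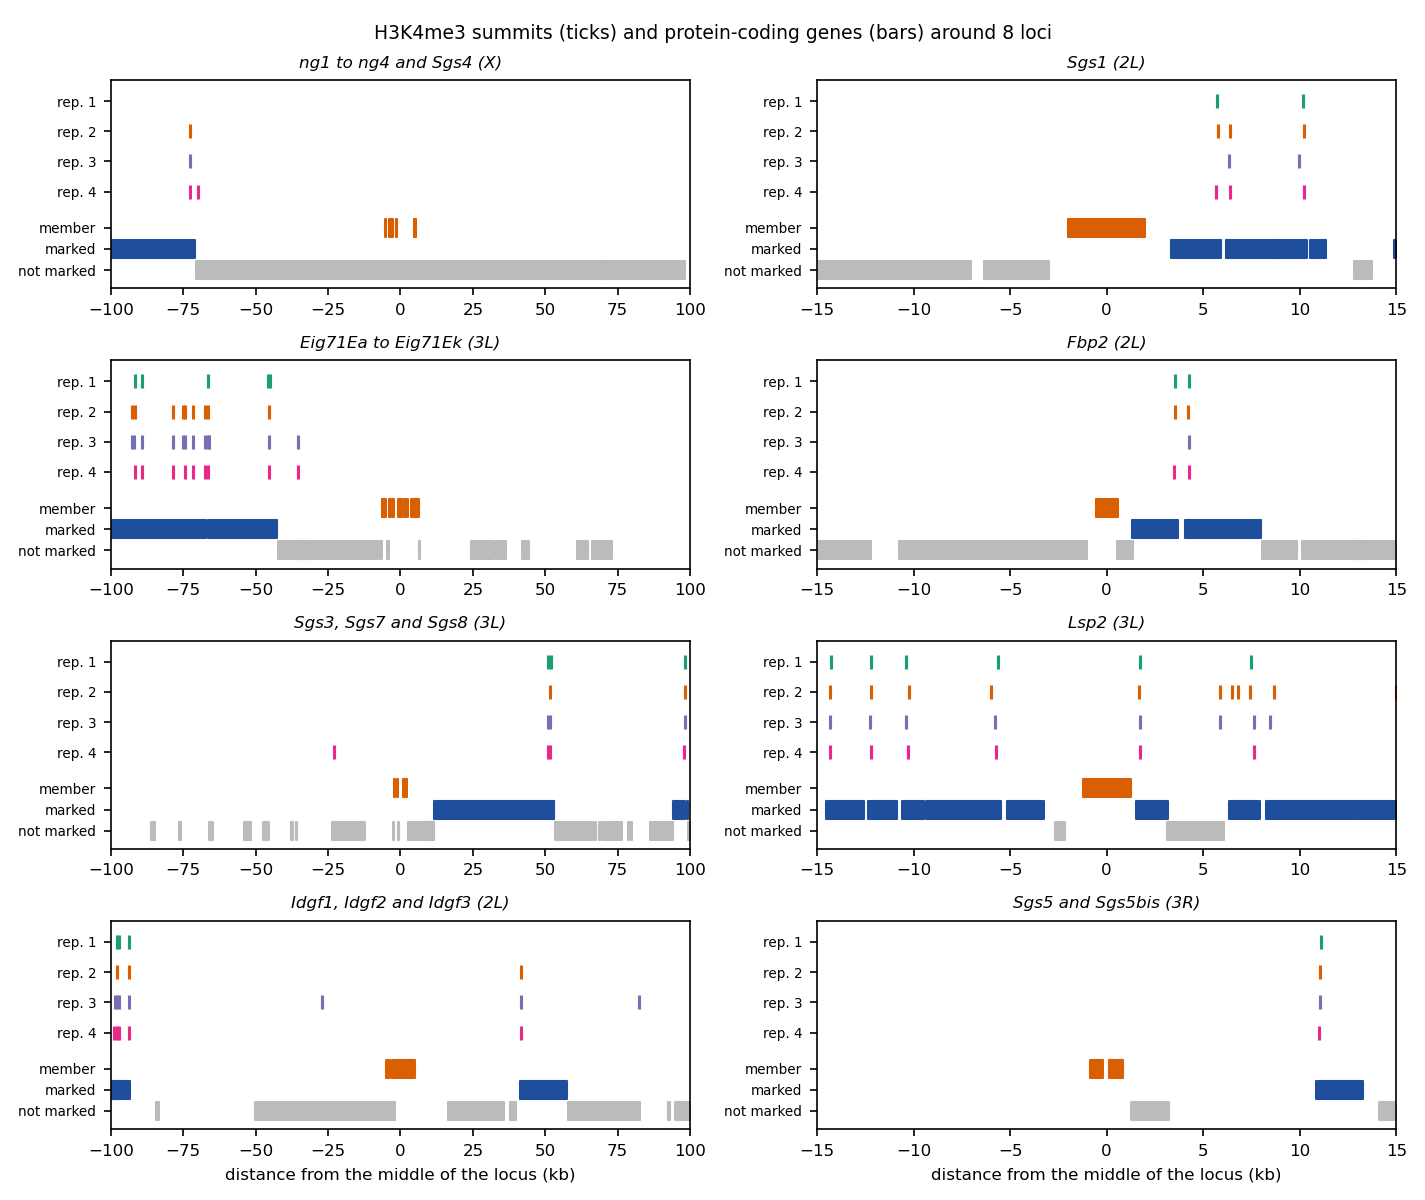
Ticks are summits of each replicate and bars are protein-coding genes, drawn by distance from the middle of 8 loci in kb; orange bars are glue, storage and secreted protein genes, blue bars other genes that were marked and grey bars other genes that were not. The left column spans 100 kb and the right column 15 kb to each side. The Lsp2 summits stand in the blue bar of DEF8 beside the gene, and the right side of the Eig71E panel holds no summit in any replicate.

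Distances to the nearest summit were long for most of these genes. Taking for each gene the median over the 4 replicates, the distance had a median of 42.0 kb over the 34 genes and of 2.0 kb over all protein-coding genes. The salivary gland group had a median of 44.1 kb and the fat body group 34.2 kb. The 33 members without a summit within 1 kb had a median of 42.4 kb, and the 6952 genes without one in the whole set had 15.8 kb. In 31 of the 34 genes the nearest summit was over 10 kb away in every replicate, as for 27.8% of all protein-coding genes and 31.1% of those in the same range of lengths, 267 to 4288 bp. The 3 exceptions were Lsp2, Fbp2 and Sgs1. Among genes without a summit within 1 kb, the nearest summit was over 10 kb away in every replicate for 93.9% of the 33 members. For all 6952 such genes the share was 55.6%.

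Clusters repeat the same distance, so the loci were also counted. Joining members at most 10 kb apart gave 15 loci, of which 1 held a marked gene. Their distances give 12 loci with the nearest summit over 10 kb away in every replicate. The locus of Sgs5 and Sgs5bis passed this limit only just, at 10.1 to 10.2 kb. The same count by locus is not given for all genes. At the 1 kb limit, Lsp2 lay just inside with a median of 0.494 kb, and Fbp2 with 2.98 kb and Sgs1 with 3.74 kb were the nearest outside it. With a limit of 5 kb these 3 genes were marked, and 59.4% of all protein-coding genes.

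**Figure D3:**
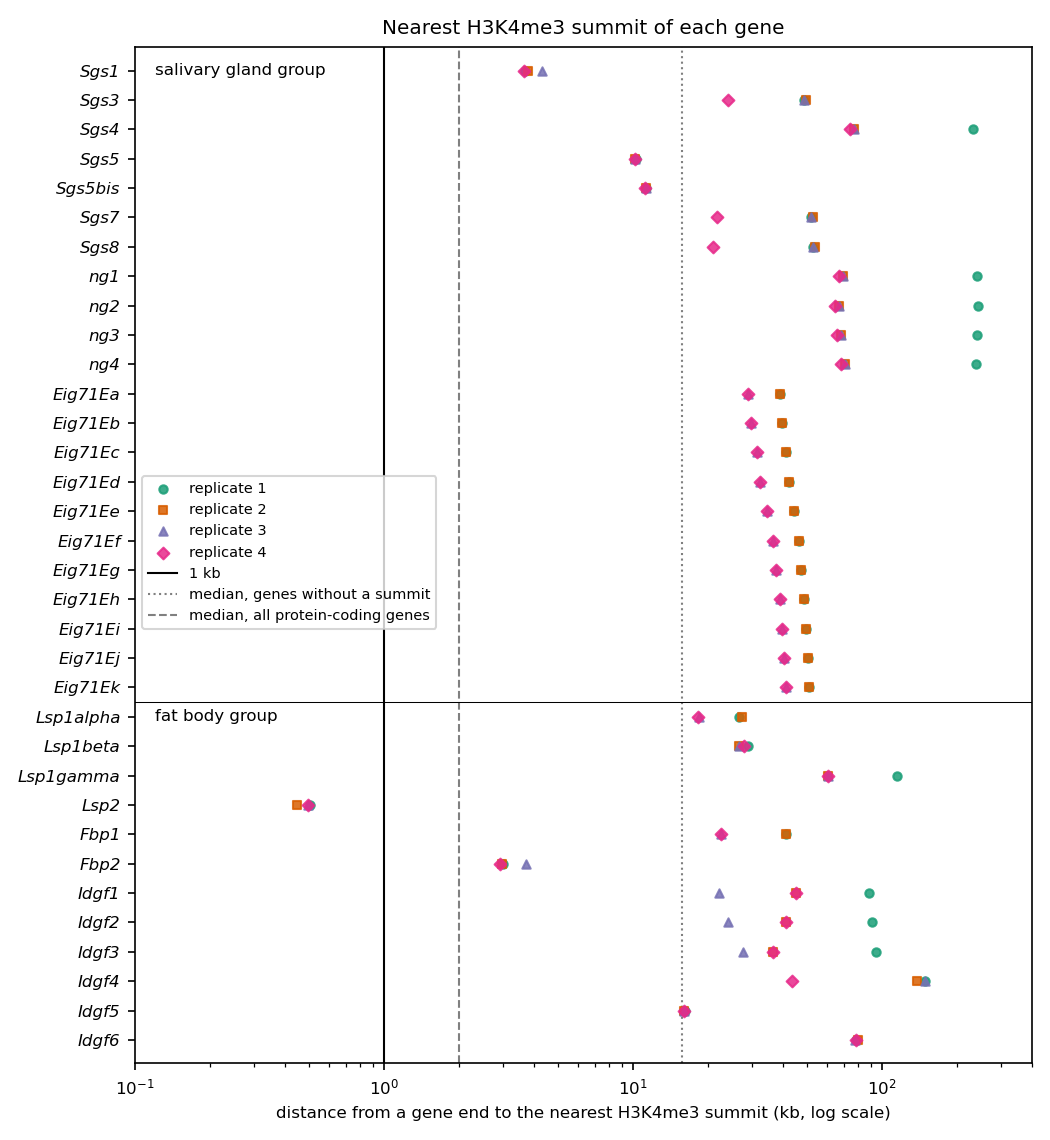
Each point gives the distance from a gene end to the nearest summit in 1 replicate, on a log axis in kb, with the salivary gland group above the fat body group. The solid line marks 1 kb, the dashed line the median of all protein-coding genes (2.0 kb) and the dotted line that of genes without a summit (15.8 kb). Lsp2 alone lies left of the solid line.

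**Figure D4:**
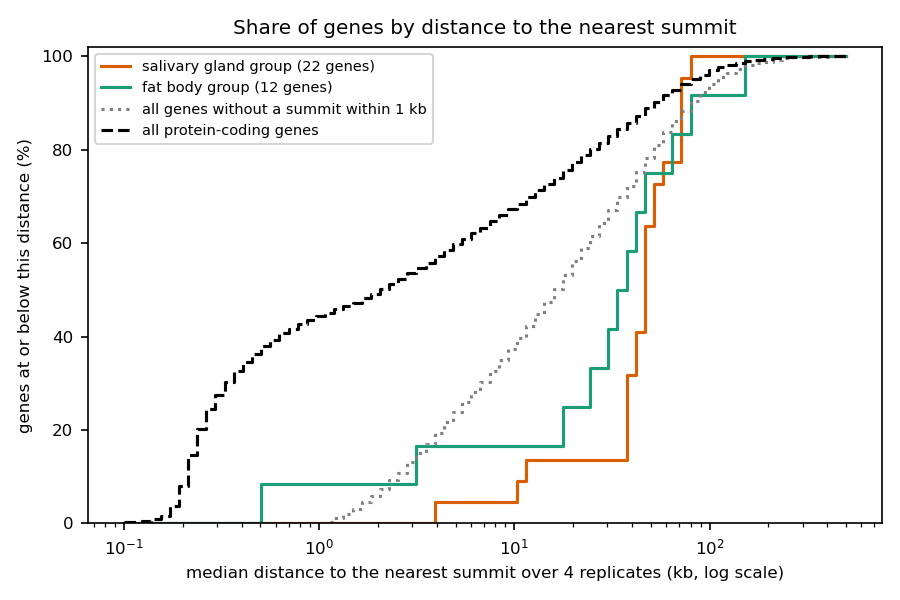
The lines give the percentage of genes whose nearest summit, as the median over 4 replicates, lies within a distance, on a log axis in kb. At 1 kb the lines stand at 0% for the salivary gland group, 8.33% for the fat body group and 44.6% for all protein-coding genes, and at 50 kb at 68.2%, 75% and 89.7%.

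The stretches free of summits around these loci each held between 2 and 20 other protein-coding genes whole. Pooling the summits of the 4 replicates, 14 loci had a summit on both sides. The summit-free stretch ran from 7.29 kb at Lsp2 to 206 kb at Lsp1beta, with a median of 89.5 kb, and exceeded 100 kb at 7 loci. Of the 34 genes 21 lay in a stretch over 100 kb, as did 23.0% of all protein-coding genes and 44.4% of those without a summit within 1 kb. These 21 genes are not separate observations. The 11 Eig71E genes share a single stretch, and the 5 genes of the ng and Sgs4 cluster share another. The stretch around the Eig71E genes was 196 kb long and held 14 other protein-coding genes whole. That around the ng genes and Sgs4 was 198 kb long with 4 others, and that around Idgf6 was 168 kb long with 19 others. Around Idgf5 a stretch of 54.2 kb held 20 others, and its direct neighbours there were the immune-induced peptide gene BomS6 and the glutathione transferase gene GstE10.

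The other genes near these loci differed widely from locus to locus. Of 97 other protein-coding genes within 20 kb of the 15 loci, counted per locus, 26 were marked (26.8%), beside 43.9% of all protein-coding genes. Of these 26, Lsp2 and Sgs1 had 12 and 8 around them. The 43.9% is a share of all genes and not of neighbours. The median share of marked genes within 20 kb was 50% for all protein-coding genes and 22.2% for those without a summit within 1 kb. For the 15 loci that median was 0%. The pooled 26.8% is not a median and includes the neighbours of Lsp2, which has a summit within 1 kb. It is therefore not comparable with the 22.2%. At 8 loci no gene within 20 kb was marked, which is 53.3% of loci. The same held for 20.6% of all protein-coding genes and for 37.5% of those without a summit within 1 kb.

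Regulators of the salivary gland and of the ecdysone response were marked in 4 of 18 cases (22.2%), beside 43.9% of all protein-coding genes. The marked genes were exd, a Hox cofactor, br, the Broad-Complex early ecdysone gene, usp, the partner of the ecdysone receptor, and ftz-f1, a nuclear receptor of the prepupal period. For usp the nearest summit was 0.377, 0.318, 0.292 and 0.240 kb from an end in replicates 1 to 4, inside the gene in all 4. For br it was 0.370, 0.346, 0.389 and 0.374 kb away and outside the gene in all 4, at a mean score percentile of 83.4. The forkhead factor fkh and the bHLH factor sage, both needed for glue gene expression, had no summit within 1 kb, and their nearest lay at a median of 13.8 and 1.78 kb. CrebA, a regulator of secretory capacity, had one in 2 replicates.

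Some of these regulators had summits inside the gene but more than 1 kb from both ends. With a search of the whole gene 8 of the 18 regulators were marked, and 44.9% of all protein-coding genes. The added genes were EcR, the ecdysone receptor, Eip74EF and Eip75B, early ecdysone genes, and hth, a Hox cofactor. The same search left the glue, storage and secreted protein genes at 1 of 34.

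Regulators and products of the fat body were marked in 6 of 14 cases (42.9%), near the share of all protein-coding genes. They were Hnf4, a nuclear receptor of lipid metabolism, Aef1, a repressor of fat body enhancers, apolpp, the main lipoprotein of the hemolymph, Mtp, which loads it with lipid, bmm, a triglyceride lipase, and Lsd-1, a lipid droplet protein. Only Aef1 had its summit inside the gene in at least 3 replicates. The share with a summit was 28.6%, 42.9%, 50% and 64.3% in replicates 1 to 4, so it differed between replicates by more than that of all genes. The GATA factor srp and the nuclear receptor svp, both fat body regulators, had no summit within 1 kb, nor had Tsf1, a transferrin, NLaz, a lipocalin, or Apoltp, a lipid transfer particle protein.

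Relatives of the storage and growth factor genes were few, and their shares are set beside 43.9% of all protein-coding genes. Of 10 chitinases, enzymes of the family that Idgf proteins derive from, 3 were marked (30%), Cht2, Cht8 and Cht11, none of them by a summit inside the gene in at least 3 replicates. Of 3 prophenoloxidases, melanization enzymes related to the hexamerins, 1 was marked (33.3%). This was PPO3, with a summit 0.251, 0.695, 0.269 and 0.221 kb from an end, inside the gene in 1 replicate. PPO1 and PPO2 had none, at medians of 15.4 and 43.3 kb.

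Marker genes of tissues that a whole larva holds were counted in the same way, beside 43.9% of all protein-coding genes. The salivary gland and fat body markers are among the regulators and products counted above. None of 3 salivary gland markers, 4 neuronal, 4 midgut, 4 hemocyte and 3 tracheal markers was marked. The neuronal marker elav and the salivary gland marker CrebA had a summit within 1 kb in 2 replicates. The tracheal marker trh and the fat body marker svp had one inside the gene, over 1 kb from both ends, in 2 replicates. Of 4 fat body markers 2 were marked (apolpp and Lsd-1), and of 4 muscle markers 1 (Mef2, a muscle transcription factor). The defining products Mhc, Act57B, Hml, alphaTry and betaTry, of muscle, hemocytes and midgut, had no summit in any replicate. Expression was not analysed here.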

How the data were processed

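The authors deposited 1 list of peak summits for each of the 4 fly libraries, called per sample. The deposited scores look like MACS2's −log10 values of a p-value or a q-value; the sources do not say which. The submitters' processing notes name, in no stated order, cutadapt 1.16 and FastQC 0.11.7, BWA 0.7.17, Picard 2.17.11, SAMtools 1.9 and MACS2. How peaks were called, whether duplicates or the input were used, and which build was used is not given in the sources used here. Per the labels' protocols, fixation was in 1% formaldehyde for 10 min, sonication took 10 min in total, and 30 µg of chromatin was used.

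Gene names, ends and lengths came from a RefSeq table (Release 6 plus ISO1 MT) with no strand, transcript positions or sequence, so starts were not separated and no promoter was shown. No label names the build. Between 92.2% and 97.4% of a replicate's summits were at most 1 kb from a gene end of the same arm, against at most 29.3% after a shift of 100 kb and at most 19.1% with the genes of another arm. No position and score were shared between replicates.

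Scores were ranked within a replicate only. Distances run from the nearer gene end. No significance test was made of these genes, since the genes and lists were chosen with earlier results of these data known, so counts stand beside those over all genes. All members were named, the ng and Eig71E genes in the text only as groups. Other named genes are those holding a calling summit, the direct neighbours of the 68C and 71E clusters the genes of 4 lists and the tissue markers, and the remaining neighbours were chosen after their values were seen. Of the listed names, plin1 and Cht3 matched genes already listed as Lsd-1 and Cht10. Replicates far from the other 3 were found by Dixon's ratio. The search was tested on simulated summits. Alternatives changed the distance, the place and score of summits, the number of summits and of replicates, and the genes in the background. Python 3.11.15, numpy 2.4.6, pandas 2.3.3 and matplotlib 3.10.9 were used.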

Additional observations from a re-analysis of the deposited data

Results flagged for a closer look

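Of 32 sets of 4 replicate values compared, 7 had 1 replicate far from the other 3, by the gap as a share of the range (Dixon's ratio). Chance gives about 1 in 20 for normally distributed values. That cannot be assumed for the distances, nor for shares of few genes, which step by whole genes. Of the 7 sets, 5 are distances to the nearest summit, which jump when 1 summit is called or missed. The distance from Fbp2 was 3.72 kb in replicate 3, where the FucTB summit was not called, against 2.92 to 2.99 kb in the others. The distance from Lsp1gamma was 115 kb in replicate 1, against 60.6 to 60.7 kb. The distance from the Sgs3, Sgs7 and Sgs8 cluster was 20.9 kb in replicate 4, against 48.7 to 49.5 kb. The distance from the ng and Sgs4 cluster was 232 kb in replicate 1, against 64.5 to 67.2 kb. The distance from Idgf4 was 43.3 kb in replicate 4, against 138 to 149 kb. The share with a summit was 20% for the chitinases and 25% for the fat body markers in replicate 1, against 30% and 50% in each of the others. Replicate 1 has the fewest summits (3518), and the part of this in its values was not tested.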

How the results depend on the processing

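The count of marked members stayed at 1 (Lsp2) with distances of 500 and 2000 bp, the whole gene and equal numbers of summits. Under these settings 36.1%, 49.2%, 44.9% and 36.6% of all genes were marked, in that order. The count also stayed at 1 with a minimum score of 5, any 1 replicate left out, and at least 2 or all 4 replicates. The share of all genes was 41.3% with the minimum score, 47.0% with at least 2 replicates and 33.7% with all 4. With a distance of 250 bp, or only summits inside the gene, 0 members and 0 fat body members were marked, the fat body share per replicate was 0% and the difference between the groups 0, while 18.9% and 31.1% of all genes were marked. With 500 bp or scores of at least 5 the fat body share and the difference were 6.25 percentage points, since Lsp2 dropped out in replicate 1. With 5000 or 10000 bp, chosen after seeing the data, 3 members were marked, 1 salivary gland and 2 fat body genes, with shares of 4.55% and 16.7%, a difference of 12.1 points, and 59.4% and 67.4% of all genes. Without each replicate in turn, 44.1% to 46.8% of all genes were marked and the mean percentile of the Lsp2 summit was 39.7 to 65.4. The share of all genes was 7.42% among genes with no other gene end within 1 kb and 21.9% among nested genes. No salivary gland gene was marked with any distance up to 2000 bp. No paired analysis was possible because the results come from no test between groups of samples. A search of transcription starts was not run, since the gene table has no strand. Read depth is unknown, so a missing summit can be a missed peak.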
